A study of Mus musculus with 10 samples.

Results

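The nuclear-encoded subunits of respiratory complex I were measured in livers of female mice with a whole-body Etnppl knockout (KO) and of wild-type (WT) females. They were the 37 genes, of 47702 in the table, whose symbol is Nduf followed by a, ab, b, c, s or v and a number. Assembly factors, suffixed paralogs and pseudogenes are not among them. Etnppl encodes ethanolamine-phosphate phospho-lyase, which breaks down phosphoethanolamine. Both genotypes were kept on chow for 20 weeks, their livers were snap frozen, and 5 libraries of poly-A RNA were sequenced from each. Strain, the targeted exons and whether a sample is 1 animal are not stated in the labels used here. The p-values therefore cover only the spread among the 5 samples of a genotype, which may be technical. The labels name no other allele or agent.

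Complex I (NADH:ubiquinone oxidoreductase) is the entry point of the mitochondrial respiratory chain for electrons from NADH. Its matrix arm holds the flavin and the iron-sulfur clusters that carry electrons to ubiquinone, and its membrane arm pumps protons. Core subunits, conserved from bacteria, do the catalysis; those of the membrane arm are encoded in mitochondrial DNA and those of the matrix arm in the nucleus. The many accessory subunits, all nuclear-encoded, are needed for assembly and stability. Hepatocytes are rich in mitochondria, and their complex I receives NADH from the oxidation of fatty acids, amino acids and alcohol.

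Etnppl itself was lower in every KO library (17.72 to 26.43 FPKM) than in every WT library (43.32 to 108.39 FPKM), but not absent (log2 difference -1.49, SE 0.23, limma adjusted p = 0.00504). FPKM divides fragment numbers by transcript length and by the library total. Comparisons of level between genes are only approximate, and some mitochondrially encoded genes, given below, stand at or near 0. Relative depth, read from the steps between the low values of 148 genes, lay between 0.899 and 1.108, with a WT mean of 1.048 and a KO mean of 0.952 (p = 0.048 in a two-sided exact permutation test of 5 against 5). The 8 hepatocyte markers examined summed to 58220 to 63840 FPKM in WT and 63310 to 68450 in KO, ranges that overlapped narrowly. Of the 8, 5 had log2 differences above 0 and 3 below. None was at 0 or passed the test (limma, at an unadjusted p under 0.05 none higher and 1 lower). The ranges of Alb did not overlap, at 39869 to 41786 FPKM in WT and 43188 to 44898 in KO (0.09, limma adjusted p = 0.24). Of 12 Kupffer cell markers, 5 fell (Clec4f -0.51, C1qa -0.46, Vsig4 -0.43, Csf1r -0.37 and Folr2 -0.58 on the log2 scale), with summed levels of 297.6 to 340.1 FPKM in WT and 207.5 to 299.0 in KO. Of the 12, 11 had log2 differences below 0 and 1 above. None of 12 endothelial or 5 tested lymphocyte markers passed limma (at an unadjusted p under 0.05, 1 higher and 3 lower, and 1 lower). Among stellate cell markers 1 of 10 (Reln -0.26) fell, as did 1 of 4 tested cholangiocyte markers (Sox9 -0.56). Among 5 erythroid markers 1 rose (Alas2 0.60), while the other 4 had log2 differences below 0 that did not pass. Beside these counts, 4.56% of all tested genes were called lower and 3.98% higher. A single call in a short list describes that gene alone. The calls of Clec4f, C1qa and Vsig4 held whichever library was left out, and those of the other 5 marker genes did not. The part of these cells in the results below was not tested. In bulk liver, fewer cells of a type and less RNA per cell cannot be told apart.

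All 37 subunits were expressed and all passed the filter of a mean of at least 0.5 FPKM. Of these, 7 rose in KO, none fell and 30 did not pass the test (limma on log2(FPKM + 0.5), Benjamini-Hochberg adjusted p under 0.05 over 12247 genes). The 7 called higher are 18.9% of the subunits. At an unadjusted limma p under 0.05 there were 16 of 37 higher and 2 lower, against 11% and 13.6% of all tested genes. All KO libraries lay above all WT libraries in 7 of the 37 subunits, 6 of them called, against 4.08% of all tested genes. The reverse held for no subunit, against 4.78% of all tested genes. Over all tested genes 3.98% were called higher and 4.56% lower, together 8.54%. Of the tested genes averaging 5 FPKM or more, 5.37% were called higher. The subunits varied less between libraries than most genes, with a median SE of 0.0601 against 0.10 over all tested genes. The log2 difference was above 0 for 29 of 37 subunits and ranged from -0.16 to 0.61, with a median of 0.13, against -0.02 over all tested genes, of which 45.7% lay above 0. The count rested on all libraries: it was 2 when WT 5 was left out, 4 when WT 2 was, 5 when KO 1 was, and 3 when any of the other 7 was. Over all tested genes the number called higher fell as well, from 488 to between 259 (without KO 5) and 456 (without WT 3). The count of subunits was 3 again when values were scaled to the total without mitochondrially encoded genes, 2 with no filter on low values, and 8 after median-of-ratios scaling.

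**Figure D1:**
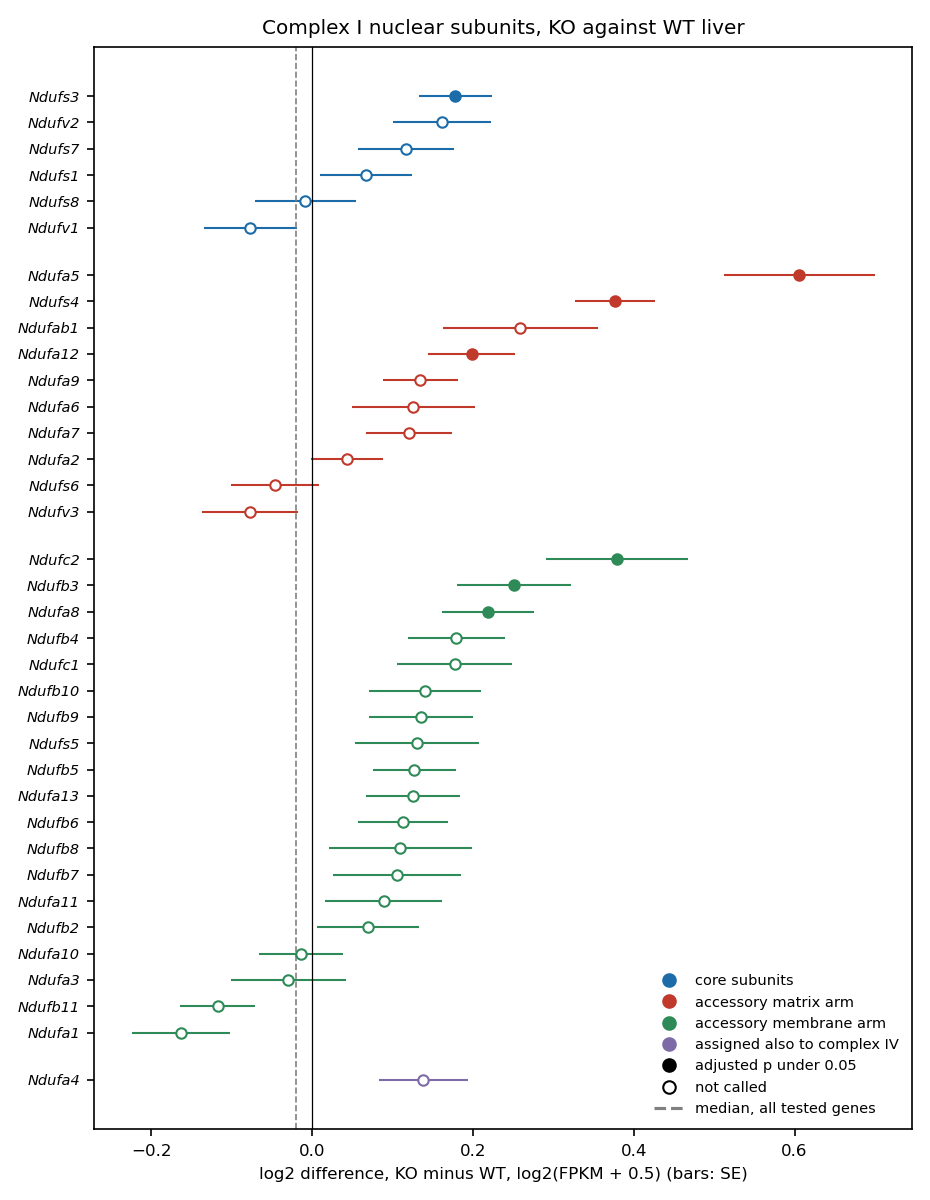
Log2 difference (KO minus WT, on log2(FPKM + 0.5)) of the subunits, with the SE, by position in the complex; filled points passed the limma threshold and the dashed line is the median of all tested genes (-0.02). Ndufa5 lies farthest right at 0.61, and most points lie above 0.

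Among accessory subunits of the matrix arm, 3 of 10 rose and none fell, against 3.98% and 4.56% of all tested genes (median log2 difference 0.13). Ndufs4, an accessory subunit placed late in assembly and mutated in Leigh syndrome, had the smallest p of the subunits. Its gene (ENSMUSG00000021764) lies on the minus strand of chromosome 13 from 114287795 to 114388258 (mm10). Ndufs4 was at 19.96, 20.18, 18.64, 18.85 and 19.33 FPKM in WT 1 to WT 5 and at 25.37, 24.12, 26.99, 25.46 and 24.70 FPKM in KO 1 to KO 5. The groups did not overlap, and even the lowest KO library, KO 2, stood clear of the highest WT library, WT 2. This was a log2 difference of 0.38 (SE 0.05), and by limma, adjusted p = 0.00181, its rank by p among all tested genes being 48.

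Ndufa5, an accessory subunit that sits beside the quinone-reducing part of the matrix arm, had the largest difference of the 37. Its gene (ENSMUSG00000023089) lies on the minus strand of chromosome 6 from 24518666 to 24528013. Ndufa5 was at 57, 50.07, 55.27, 43.13 and 44.41 FPKM in WT 1 to WT 5 and at 64.70, 76.15, 85.77, 79.83 and 74.44 FPKM in KO 1 to KO 5. Every KO library was higher than every WT library, and WT 4 and WT 5 were the lowest of all. The mean rose from 49.98 ± 6.23 to 76.2 ± 7.75 FPKM (SD, n = 5 each), which was 152.4% of WT (log2 difference 0.61, SE 0.09, limma adjusted p = 0.00419). Relative to the median level of the other 36 subunits in the same library, Ndufa5 stood at 0.543 to 0.736 in WT and at 0.796 to 0.995 in KO. Ndufs4 and Ndufa5 stayed called under all 22 alternatives, each left-out library included.

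Ndufa12, a matrix-arm subunit whose place is held by the assembly factor Ndufaf2 before it joins, rose from 68.7 ± 2.07 to 79.0 ± 5.47 FPKM (SD, n = 5 each). Its values were 66.22 to 71.65 FPKM in WT (median 68.99) and 73.21 to 86.02 in KO (median 78.53), so the groups were separated by a narrow margin. The difference on the log2 scale came to 0.20 (SE 0.05; adjusted p = 0.0435 by limma), and the call held with only 1 library left out, KO 5 (adjusted p up to 0.0977 without another). The pseudogene Gm15920, whose transcript matches 71% of the Ndufa12 transcript examined at 99.5% identity, was at 1.35 FPKM in WT and 1.93 in KO, so a small part of the reads could have been split between them. Ndufab1, the mitochondrial acyl carrier protein, had a larger log2 difference of 0.26 but overlapping groups, 127.18 to 175.72 FPKM in WT and 156.37 to 216.17 in KO, and did not pass (limma adjusted p = 0.122). Ndufa9, a dehydrogenase-like subunit near the quinone site, was at 47.48 to 53.84 FPKM in WT and 53.56 to 56.88 in KO and did not pass either (0.13, limma adjusted p = 0.0987). Ndufs6, which binds zinc (-0.05), and Ndufv3, at the tip of the arm (-0.08), had values below 0 that did not pass. Ndufa6 (0.13), Ndufa7 (0.12) and Ndufa2 (0.04) complete the group.

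Among the 7 core subunits of the matrix arm, 1 rose and none fell, against 3.98% and 4.56% of all tested genes (median 0.12). Ndufs3, a core subunit of the matrix arm without an iron-sulfur cluster of its own, was at 59.95, 62.39, 60.87, 66.66 and 60.29 FPKM in WT 1 to WT 5 and at 67.73, 69.81, 69.69, 73.15 and 70.72 FPKM in KO 1 to KO 5. The groups did not overlap, with WT 4 closest to the KO range. On the log2 scale KO exceeded WT by 0.18 (SE 0.05; adjusted p = 0.0362 by limma), and the call was kept without WT 4 or KO 1 and lost without any of the 8 others (adjusted p up to 0.0809). Ndufs3 shares 98.6% identity over 75.7% of its transcript with the pseudogene Gm12251 (0.172 FPKM in WT and 0.29 in KO), and 85 bases of exon with Kbtbd4 on the opposite strand.

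Ndufv2 (0.16), an iron-sulfur subunit next to the flavin, Ndufs7 (0.12) and Ndufs1 (0.07), which carries most of the clusters of the electron input module, did not pass. Ndufv1, which binds NADH and the flavin, was at 62.49 to 77.27 FPKM in WT and 62.88 to 68.10 in KO (-0.08). Ndufs8, another iron-sulfur subunit, was at 41.97 to 48.82 and 40.57 to 48.73 FPKM, with a log2 difference of -0.01 whose sign changed with scaling. Members of the same catalytic path therefore held values on both sides of 0, and the differences between them were not tested.

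Among accessory subunits of the membrane arm, 3 of 19 rose and none fell, against 3.98% and 4.56% of all tested genes (median 0.13). Ndufc2 had the widest difference of this group. It was at 38.70, 32.20, 35.77, 29.88 and 28.50 FPKM in WT 1 to WT 5 and at 39.25, 40.16, 42.34, 44.28 and 48.66 FPKM in KO 1 to KO 5. The lowest KO library, KO 1, was only just above the highest WT library, WT 1. Its difference on the log2 scale was 0.38 (SE 0.09; adjusted p = 0.0254 by limma), and leaving out WT 4, WT 5, KO 4 or KO 5 ended the call (highest adjusted p 0.0595).

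Ndufa8, a disulfide-rich subunit on the intermembrane-space side, rose from 82.2 ± 3.71 to 95.9 ± 6.72 FPKM (SD, n = 5 each), with 76.94 to 86.33 FPKM in WT and 86.88 to 105.76 in KO. Its groups were separated only narrowly, KO 1 lying just above WT 2. On the log2 scale this was 0.22 (SE 0.06; adjusted p = 0.038 by limma), and the call was kept without WT 2 or KO 1 and lost without any of the 8 others (adjusted p up to 0.0818). Ndufb3, a small membrane-spanning subunit, rose from 45.9 ± 1.27 to 55.0 ± 5.95 FPKM (SD, n = 5 each). Its groups overlapped, with KO 4 at 46.48 FPKM inside the WT range of 44.75 to 47.71 and the other KO libraries at 52.66 to 61.81. On the log2 scale this was 0.25 (SE 0.07; adjusted p = 0.0492 by limma), and the call was kept without KO 4 and lost without any of the 9 others (adjusted p up to 0.103).

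**Figure D2:**
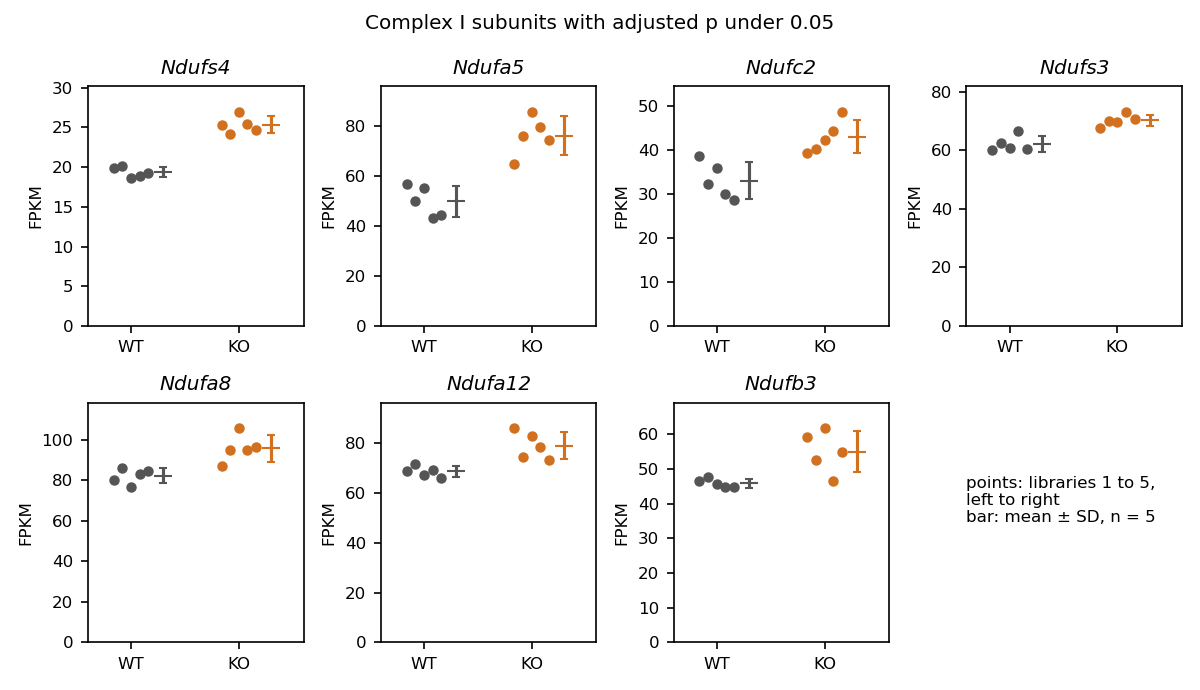
FPKM of the 7 subunits that passed the limma threshold, per library (points) with the mean and SD of 5 libraries (bars) on axes that start at 0. WT and KO points do not overlap for 6 of the 7; for Ndufb3, KO 4 lies at 46.48 FPKM within the WT range.

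The other 16 membrane-arm subunits did not pass. Ndufb4 (0.18, limma adjusted p = 0.0918) came closest, at 50.27 to 56.78 FPKM in WT and 54.85 to 66.49 in KO. The highest level of all 37 was that of Ndufb9, at 280.61 to 355.13 FPKM in WT and 333.34 to 361.88 in KO (0.14), and Ndufb8 had the highest after Ndufb9 and Ndufa4, with 177.18 to 237.76 and 207.77 to 249.39 FPKM (0.11). Ndufa11 had the lowest level, 6.89 to 8.41 FPKM in WT and 7.55 to 8.67 in KO (0.09), and overlaps Vmac by 70 bases of exon on the opposite strand. Transcript levels of subunits that occur together in one complex thus spanned 7.80 to 331.8 FPKM as means over the 10 libraries, with Ndufs4 and Ndufc2 next above Ndufa11.

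Of the 4 membrane-arm subunits with a log2 difference below 0, Ndufa10, a kinase-like subunit (-0.01), and Ndufa3 (-0.03) were near 0 and changed sign under some alternatives. Ndufa1 and Ndufb11, both single-pass membrane subunits, are the 2 subunits encoded on the X chromosome and had the lowest log2 differences of the 37. Ndufa1 was at 112.10, 119.87, 111.65, 99.31 and 108.76 FPKM in WT 1 to WT 5 and at 100.68, 101.52, 106.04, 90.56 and 93.57 FPKM in KO 1 to KO 5 (-0.16, limma adjusted p = 0.127). Ndufb11 was at 76.71 to 85.72 FPKM in WT and 72.52 to 77.53 in KO (-0.12, limma adjusted p = 0.147). Neither passed the test, and the groups overlapped for both. The 349 tested X-linked genes had a median log2 difference of -0.01, against -0.02 over 11851 autosomal genes, with 15 called higher and 17 lower. Their summed level was nevertheless lower in every KO library (6883 to 7116 FPKM) than in every WT library (7180 to 7334 FPKM), these 2 subunits included. Autosomal sums overlapped, at 610200 to 625600 FPKM in WT and 620800 to 635300 in KO. A shift of X-linked genes was not tested. Ndufb11 shares 117 bases of exon with Rbm10 on the opposite strand, which was at 10.2 FPKM in WT and 8.23 in KO.

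Ndufa4, which is named as a complex I subunit but has also been assigned to complex IV, was at 240.72 to 282.24 FPKM in WT and 270.84 to 308.48 in KO. The groups overlapped, and it did not pass (0.14, limma adjusted p = 0.149). It had the second highest level of the 37.

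Across libraries, the summed level of the 37 subunits was 3443, 3738, 3628, 3386 and 3469 FPKM in WT 1 to WT 5 and 3790, 3747, 4086, 3759 and 3751 FPKM in KO 1 to KO 5. The groups were separated only narrowly, between WT 2 and KO 2, and KO 3 stood above all others. Sums of complexes II to V did not overlap either, at 8526 to 9480 FPKM in WT and 9635 to 10330 in KO. Over all tested genes the sums overlapped, at 692900 to 736900 FPKM in WT and 713600 to 741600 in KO. KO 3 was the highest library for 16 of 37 subunits, and WT 1, WT 4 and WT 5 were the lowest for 9, 9 and 8. Every KO library lay above the WT mean in at least 28 subunits, but so did WT 2, in 33. Without KO 3 the median log2 difference of the subunits was 0.10.

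**Figure D3:**
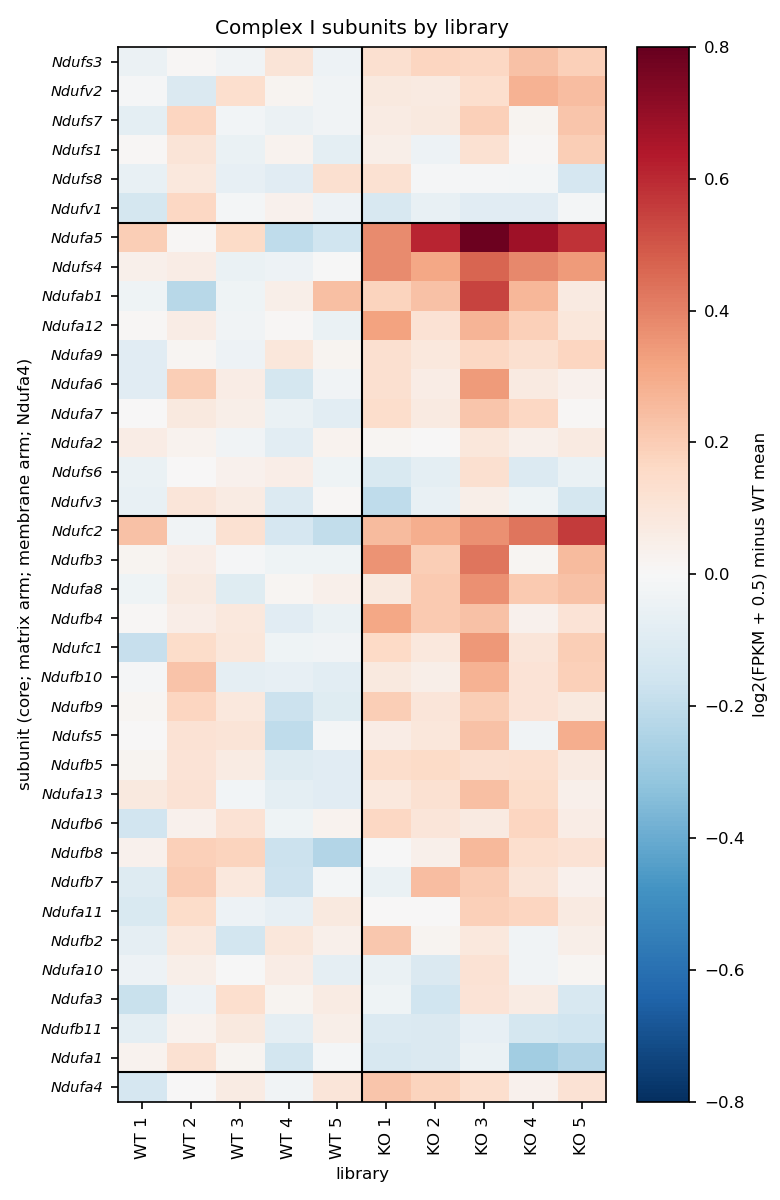
Heat map of log2(FPKM + 0.5) minus the WT mean for the subunits (rows, by position in the complex) and library (columns); red is higher and blue lower. The KO columns are mostly red, KO 3 most of all, and Ndufa1, Ndufb11 and Ndufv1 lie below the WT mean in all 5 KO libraries.

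The promoters of the 7 subunits that rose were searched because the regulators named below bind such regions. These 7 share a direction because they were picked as called higher. The windows ran from 250 bases before to 50 after the start annotated in RefSeq (GRCm38.p6, the assembly of mm10). For Ndufa5, with 2 annotated starts, the outer one was used. These starts are not those of GENCODE, from which the gene positions above are taken: the start of Ndufc2 was the same, and those of the other 6 lay 13 to 323 bases inside the GENCODE gene, so their windows are in part or wholly transcribed there. The motifs were GCGC, any base and TGCGC in a row (NRF1), CCGGAA (ETS family, to which Gabpa belongs), AAGATGGC (YY1) and AAGGTCA (ERR family), on both strands. Each line gives a match in capitals with 10 bases on either side where the window holds them, on the gene's strand from 5′ to 3′. The sites, all on GRCm38.p6, are chr6:24527697-24527726 (minus strand) for Ndufa5 NRF1, chr2:36049349-36049378 (minus strand) for Ndufa8 NRF1, chr2:90904764-90904789 (minus strand) for Ndufs3 outer ETS, chr2:90904733-90904758 (minus strand) for Ndufs3 inner ETS, chr7:97399991-97400016 (plus strand) for Ndufc2 ETS and chr13:114388045-114388069 (minus strand) for Ndufs4 YY1.
Ndufa5, NRF1: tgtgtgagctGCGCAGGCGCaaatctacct
Ndufa8, NRF1: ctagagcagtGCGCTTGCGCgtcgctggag
Ndufs3, outer ETS: gggctcagatCCGGAAcctctgcttc
Ndufs3, inner ETS: ccgcgtccgcCCGGAAgaagagtcac
Ndufc2, ETS: acttagaagcCCGGAAcctcgcgtgc
Ndufs4, YY1: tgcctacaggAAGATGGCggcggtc

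The NRF1 matches stood at -26 to -17 from the RefSeq start of Ndufa5 and at -30 to -21 from that of Ndufa8. Ndufs3 held ETS matches at -58 to -53 and -27 to -22, and another at 3 to 8 that is not printed. The ETS match of Ndufc2 spans its start, and the YY1 match of Ndufs4 lies at 36 to 43. Ndufa12 and Ndufb3 held none of these letters. Where at least 80 bases in a row before the start lay in no GENCODE exon, they are shown as well. Introns of other genes were not checked. These are 86 bases for Ndufs4, chr13:114388259-114388344 (minus strand), and the 120 nearest the start for Ndufc2, chr7:97399883-97400002 (plus strand). Neither stretch holds a whole match.
Ndufs4, upstream: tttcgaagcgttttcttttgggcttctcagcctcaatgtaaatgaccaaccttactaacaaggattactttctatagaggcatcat
Ndufc2, upstream: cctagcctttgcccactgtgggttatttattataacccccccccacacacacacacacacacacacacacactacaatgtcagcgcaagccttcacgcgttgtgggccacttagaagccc

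Of the 37 subunits, 33 had a window in the table. The NRF1 letters were found in 7 of these 33 (21.2%), against 11.7% of 9085 tested genes with a window and 4.6% of all 32851 windows. YY1 letters were found in 7 (21.2%, against 5.42% and 2.75%), ETS letters in 10 (30.3%, against 31.7% and 14.9%) and ERR letters in 3 (9.09%, against 4.26% and 4.72%). Of the 7 that rose, 2 held the NRF1, 2 the ETS, 1 the YY1 and none the ERR letters. No test was made of these shares.

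Of 19 assembly factors of complex I that matched the table, 1 rose, none fell and 18 did not pass (median log2 difference 0.07). Ndufaf4, which acts early on the matrix arm, was at 8.16 to 10.82 FPKM in WT and 11 to 13.32 in KO. The groups did not overlap (0.37, SE 0.09, limma adjusted p = 0.0279), but the call was kept only without WT 3, WT 4, WT 5 or KO 1 (elsewhere adjusted p reached 0.0656). That share of 5.26% called higher is near the 3.98% of all tested genes.

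The partner subunits encoded in mitochondrial DNA, mt-Nd1 to mt-Nd6 and mt-Nd4l, build the core of the membrane arm. Of these 7, mt-Nd1 and mt-Nd6 rose and 5 did not pass, where 3.98% of all tested genes were called higher. The level of mt-Nd1, the subunit at the junction of both arms, was 7881.10 to 11529.49 FPKM in WT and 10767.39 to 12711.87 in KO (0.38, SE 0.10, limma adjusted p = 0.0372), with WT 3 inside the KO range. The level of mt-Nd6, the subunit encoded on the light strand, was 53.94 to 65.86 FPKM in WT and 64.92 to 109.63 in KO (0.47, SE 0.13, limma adjusted p = 0.0484). Its lowest KO library, KO 1, was below WT 3. Its mean over the 10 libraries was 73.18 FPKM, against 4611 to 11830 for the other mt-Nd transcripts. How fully the poly-A libraries captured it was not tested. The call of mt-Nd1 was kept without WT 3 or KO 5 and lost without any of the 8 others (adjusted p up to 0.0842), and that of mt-Nd6 was kept without KO 1 and lost without any of the 9 others (adjusted p up to 0.11). Summed, the 7 transcripts stood at 47090 to 64320 FPKM in WT and 51660 to 60940 in KO, a log2 difference of 0.06 (p = 0.52 in a two-sided exact permutation test of 5 against 5), whose sign changed under quantile normalization. The highest and the lowest sum were both in WT, in WT 3 and WT 5. The deposited values list mt-Co2, mt-Atp6 and mt-Atp8 at 0 in every library and mt-Co3 at 0 to 0.27 FPKM, so the mitochondrial total is not complete. All mitochondrially encoded genes summed to 74320 to 104500 FPKM in WT and 85630 to 100300 in KO. FPKM is relative to a library total that includes them. Their part in the differences of the nuclear subunits was not tested.

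Subunits of complexes II to V, the most similar group, rose in 14 of 40 cases, with none lower. This was 35% called higher, against 3.98% of all tested genes, with a median log2 difference of 0.16. The count lay between 7 and 16 when 1 library was left out, and was 7 without WT 4 or WT 5. By complex, the counts were 1 of 4 for complex II (Sdhd 0.24), 4 of 9 for complex III (Uqcrb 0.32, Cyc1 0.28, Uqcrc1 0.22 and Uqcrfs1 0.19), 4 of 11 for complex IV (Cox7a2 0.33, Cox7b 0.27, Cox7c 0.27 and Cox5b 0.21) and 5 of 16 for complex V (Atp5g3 0.33, Atp5f1 0.26, Atp5g1 0.25, Atp5b 0.18 and Atp5c1 0.16). Complex I had the lowest share of called subunits of the 5 complexes and the widest single difference among the called ones, Ndufa5. Whether the shares differ between complexes was not tested. The calls of Atp5g3, Atp5f1, Cox7a2, Cox7b, Cyc1, Uqcrb and Uqcrfs1 held whichever library was left out, and those of the other 7 did not.

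**Figure D4:**
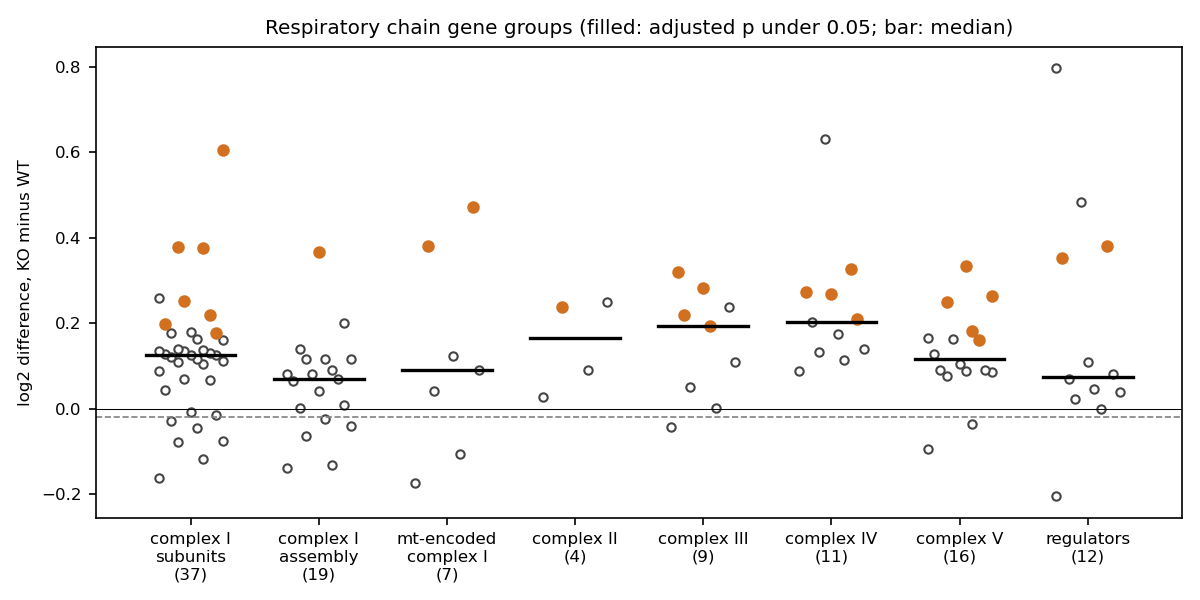
Log2 difference (KO minus WT) of each tested gene in 8 groups, with the number of genes in brackets; filled points passed the limma threshold, black bars are group medians and the dashed line is the median of all tested genes (-0.02). The medians lie between 0.07 (assembly factors) and 0.20 (complex IV).

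Of 12 regulators of mitochondrial biogenesis, 2 rose (against 3.98% of all tested genes), none fell (against 4.56%) and 10 did not pass (median 0.08). Nrf1 (0.08), Gabpa (0.02) and Yy1 (0.05), whose letters or family were searched above, were among the 10. Esrra, a nuclear receptor that binds many genes of energy metabolism, was at 10.80 to 13.30 FPKM in WT and 14.02 to 16.79 in KO. The groups did not overlap, and the call held whichever library was left out (0.35, SE 0.08, limma adjusted p = 0.0167). Gabpb1, the partner of the ETS factor Gabpa, was at 4.77 to 6.45 FPKM in WT and 6.16 to 7.68 in KO. Its groups overlapped (0.38, SE 0.10, limma adjusted p = 0.0361), and the call was kept without WT 2, WT 3 or KO 1 and lost without any of the 7 others (adjusted p up to 0.0818).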

How the data were processed

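Liver poly-A RNA from 5 WT and 5 KO samples was sequenced in paired ends, with a directional kit. The authors deposited 1 table of FPKM values per gene and sample; the submitters' processing notes name STAR, RSEM, DESeq, DESeq2, R 4.0.2 and the build mm10, without their roles. Strand setting and gene models are not given in the sources used here. FPKM holds no counts, so no count model was used.

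Samples were grouped by the labelled genotype. Log2(FPKM + 0.5) of the 12247 genes averaging 0.5 FPKM or more was fitted in limma 3.58.1 (R 4.3.3, eBayes with trend and robust), with Benjamini-Hochberg adjustment over all of them and a threshold of 0.05. Fold changes are on this scale, which understates those of low genes. Single sums were compared by exact permutation over 252 arrangements (smallest p 0.0079). The procedure was tested on simulated data. Gene positions come from GENCODE M21, and promoters from RefSeq. Alternatives covered pseudocount, filter, scaling, fit, length and GC, a replicate block and each library left out.

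The subunits, the gene lists and the tests were chosen with earlier results of these data known, and the motifs after the files were seen. Named were all called subunits, the 4 next by p, all with negative differences, and the 3 highest and 3 lowest in level; of other lists, all called genes up to 6, otherwise the 4 with the smallest p. The other called genes of complexes II to V, the other subunits given by value, and genes that overlap or resemble a subunit were named outside this rule, after their values were seen. The same holds for the regulators Nrf1, Gabpa and Yy1 and for the hepatocyte marker Alb. A subunit chosen by this rule enters the counts and medians but is not reported here by name, in the text or the plots. Of 190 listed symbols 189 matched; muscle markers, none tested, summed to at most 0.25 FPKM.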

Additional observations from a re-analysis of the deposited data

Results flagged for a closer look

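Of 106 groups of 5 libraries examined for a single library far from the other 4, 7 held one, where chance gives about 1 in 20, or 5.3. The summed level of the complex I subunits reached 4086 FPKM in KO 3 while the remaining KO libraries stood at 3747 to 3790. In the same library Ndufs6 was at 96.43 FPKM (80.7 to 84.97 in the others) and Uqcrb at 337.44 FPKM (289.94 to 298.99). In WT 2, Cyc1 was at 163.2 FPKM (139.2 to 142.29 in the other WT libraries), Uqcrc1 at 187.89 (162.06 to 168.38), Atp5b at 1092.65 (986.02 to 1013.08) and Atp5g1 at 328.8 (274.38 to 289.25).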

How the results depend on the processing

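The median log2 difference of the complex I subunits stayed positive under all 22 alternatives (0.10 to 0.16), and none was called lower under any. The number called higher, 7, was 2 with no filter on low values, 3 when scaled without mitochondrially encoded genes, 2 with a replicate block, and 2 to 5 with 1 library left out. The assembly factor call went from 1 to 0 with no filter, and was 0 to 1 with 1 library left out. The count for complexes II to V, 14, was 7 with the replicate block and 7 to 16 with 1 library left out. Over all genes, the split of 488 higher and 558 lower became 230 and 321 with the replicate block, 294 and 370 with no filter, and 390 and 674 when scaled without mitochondrially encoded genes. The share of calls that were higher, 46.65%, ranged from 36.65% to 56.1% over the scalings. Deviations of same-numbered libraries correlated weakly (-0.207 to 0.208). For numbers 2 and 5 the correlation (0.158 and 0.208) was above that of the same WT library with any other KO library (up to 0.0667 and 0.0596). For number 3 it was below (-0.207 against -0.173 at lowest), and for numbers 1 and 4 it was within the range. These were mixed, and the numbers were not taken as pairs. The block also ended the call of Esrra (limma adjusted p = 0.0601). The summed mt-ND difference, 0.06, was -0.0542 under quantile normalization and 0.0086 to 0.121 with 1 library left out. Subunits near 0 changed sign without passing the test. Ndufa3 (-0.0745 to 0.0036 with 1 library left out) was above 0 without WT 3 (0.0036) or KO 2 (0.0023). Ndufa10 was 0.0018 under median-of-ratios, 0.0012 under upper-quartile, 0.0099 under quantile and 0.0236 under length and GC correction, and with 1 library left out -0.0457 to 0.0114, above 0 without WT 4 (0.0016) or KO 2 (0.0114). Ndufs8 was 0.0067, 0.0062, 0.0122 and 0.0162 under the same 4 corrections, and with 1 library left out -0.042 to 0.0234, above 0 when WT 2 (0.0129), WT 5 (0.0232) or KO 5 (0.0234) was left out. The causes were not tested. With no filter more genes were tested (21111), and with 1 library left out the fit held fewer samples. Of the single-gene values, 869 were unchanged in direction and call, 209 lost a call, 6 gained one and 15 changed sign. Absolute depth is unknown.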

Other observations

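Complex I subunit transcripts were short and abundant, with a median length of 782 bases against 2522 over all tested genes, and a median level of 77.92 FPKM against 6.76. Across the 37 subunits, the log2 difference had a Spearman correlation of 0.148 with length, -0.331 with GC content and -0.104 with level, given as a description since all values come from the same 10 libraries. No subunit gene lay within 10 Mb of Etnppl on chromosome 3.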
